A study of Mus musculus with 16 samples.

Results

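Ybx1, Ybx3 and Carhsp1 are 3 mouse genes whose proteins carry a cold-shock domain, and Ybx1 is the gene that the study deleted. They were found by matching gene identifiers to symbols, and every interval of these genes with a mean of at least 1 CPM (reads scaled to library size, as deposited) was used. That gave 6 intervals out of 74385 different intervals of 21177 genes in the table, and all 6 lie in 3' untranslated regions (3' UTRs). No other interval of the 3 genes was in the table. Of the 6, a pair of Ybx1 intervals overlap and hold the same 16 values, so there were 5 intervals with values of their own.

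The samples were mouse leukemia cells of the C57BL/6 strain, labelled as bone marrow, with WT and YBX1-/- as the genotypes. Both genotypes were fed 4-thiouridine (4sU, a uridine analog built into new RNA) at 50 µM for 24 h, then washed and kept in medium with 10 mM uridine. RNA was taken at 0, 0.5, 1, 3, 6, 12, 18 and 24 h of this chase, with 1 polyA library for each genotype and time point, 16 in all. In SLAM-seq, RNA that carries 4sU is read from T-to-C changes, and the deposited T-to-C rate of an interval is given here in percent. The oncogene behind the leukemia, the age and number of the animals, whether cells were pooled and where the Ybx1 gene was cut are not given in the sources used here. Nothing says that the time points came from separate cultures, so the p-values of fits measure only the scatter of time points around a fit. The exact permutation tests treat the time points as independent of each other, which is not known.

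The cold-shock domain is a small beta barrel that binds single-stranded RNA and DNA, and it was first known from bacterial RNA chaperones. YBX1 is an abundant component of cytoplasmic messenger ribonucleoprotein particles, in which it packages mRNA and affects its translation and stability, and it was reported to bind RNA with the letters CAUC and RNA that carries m6A. YBX3 (also known as MSY4 or ZONAB) is its close relative and also binds mRNA. CARHSP1 is a small phosphoprotein with 1 cold-shock domain that binds and stabilises the mRNA of tumour necrosis factor.

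In the mouse annotation (GENCODE M21, GRCm38), all 3 genes lie on the minus strand. Ybx1 (ENSMUSG00000028639) has its main interval at chr4:119277981-119278367, which is 387 bases long and 34.9% T. A second Ybx1 interval of 31 bases lies at chr4:119278934-119278964. Ybx3 (ENSMUSG00000030189) has a main interval of 551 bases and 28.1% T at chr6:131364855-131365405, and one of 33 bases at chr6:131367765-131367797. Carhsp1 (ENSMUSG00000008393) has a single interval of 2361 bases and 25.4% T at chr16:8658580-8660940. The median over all tested intervals was 676 bases and 28.6% T.

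The paired intervals of Ybx1 and Ybx3 come from the same gene layout. In both genes an intron follows the stop codon, so that the 3' UTR is split into a short first piece and a longer last piece in every coding transcript with an annotated stop codon. The intron is 566 bases long in Ybx1 and 2359 bases long in Ybx3. Of 7418 tested coding genes, 204 (2.8%) have such an intron in every coding transcript, and 2880 (38.8%) have it in at least 1. Carhsp1 has its whole 3' UTR in 1 piece.

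The following stretches, from the GENCODE transcripts and written 5′ to 3′ on the strand of the mRNA, are shown because the short Ybx1 piece holds the letters reported for YBX1 itself and because the 3 genes differ in AU-rich elements. The strand of the mRNA was searched for CATC, GGAC (an m6A context), ATTTA (an AU-rich element), TGTANATA (a Pumilio site) and, added later, AATAAA (the polyadenylation signal). The letters in capitals are the motif.
Ybx1 short piece, chr4:119278934-119278963: tgccggcttacCATCtctacCATCATCcgg
Ybx1 end, chr4:119277984-119278013: caagcacctgttAATAAAggtcttaaataa
Ybx3 first ATTTA, chr6:131364969-131364998: ccaagtgtcatgATTTAagaagaaatttta
Ybx3 second ATTTA, chr6:131364944-131364973: ttttatgcccttATTTAttcctaggatgag
Ybx3 end, chr6:131364863-131364892: aagttcctcaaaAATAAAatttttaccttc
Carhsp1 ATTTA, chr16:8660202-8660231: gggtggtgctttATTTAaaaacagaatcca
Carhsp1 end, chr16:8658588-8658617: caactctttctcAATAAAgtttgttttgtg

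The short Ybx1 piece held CATC 3 times, the last 2 sharing a C, while 10.8% of the 157 tested intervals of like length (within a factor of 0.8) held it at all. The main Ybx1 interval held CATC 1 time but neither GGAC nor ATTTA, which occurred in 72.4% and 41.1% of 1610 intervals of like length. The main Ybx3 interval held ATTTA 2 times and GGAC 1 time, against 52.4% and 81.7% of 1803 like intervals that held them. Carhsp1 held GGAC 7 times and ATTTA 1 time in 2361 bases, where the medians of 1767 like intervals were 6 and 4. TGTANATA was found in none of the member intervals. AATAAA was present 2 times in the main interval of Ybx1 and of Ybx3 and 1 time in Carhsp1. A match of letters is a description and shows no binding, and the sites of m6A were not measured in these libraries.

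The deposited mean read level, over all 16 libraries and thus over both genotypes, was 32.47 CPM for the main Ybx1 interval, 45.34 CPM for that of Ybx3 and 17.74 CPM for Carhsp1. Per kilobase of interval this was 83.9 CPM for Ybx1, 82.3 CPM for Ybx3 and 7.5 CPM for Carhsp1. The median of 14456 tested intervals of at least 100 bases was 13.03 CPM per kilobase, and 89.5% of them lay below Ybx1, 89.2% below Ybx3 and 34.1% below Carhsp1. The 2 Y-box genes were therefore covered about alike per length and Carhsp1 less, but with a single mean per interval these levels have no error and cannot be set against the genotype.

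The deleted gene was examined first. The T-to-C rate of Ybx1 is a share of label in the reads present and not an amount, so it does not check the deletion. In the WT libraries the main Ybx1 interval read 55.17, 61.37, 56.79, 50.06, 38.93, 15.51, 7.30 and 5.08% from 0 to 24 h. In the YBX1-/- libraries it read 72.0, 51.72, 43.43, 48.92, 31.14, 20.79, 4.67 and 3.08%. The rate was above 0 in all 8 libraries labelled YBX1-/-, so reads with conversions from the last part of the Ybx1 3' UTR were counted in each of them. The YBX1-/- rates were below WT at 6 of 8 time points and above it at 0 and 12 h.

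Ybx1 kept label for longer than most tested intervals. Its rate was 1.26 to 1.31 times the median of the tested intervals in the first 3 WT libraries and 5.94 to 6.91 times that median from 12 to 24 h. Between 85.3 and 98.3% of the 15871 tested intervals had a lower rate in each WT library, and between 87.7 and 98.7% in each YBX1-/- library. In limma fits, the WT slope was -0.158 log2 per h (SE 0.0146, adjusted p = 1.45e-07), a half-life of label of 6.32 h. The YBX1-/- slope was -0.182 log2 per h (SE 0.0146, adjusted p = 1.23e-07), or 5.50 h. The median half-life over tested intervals was 3.70 h in WT and 4.03 h in YBX1-/-, and 92.1% and 85.5% of intervals lost label faster than Ybx1. Fits that allow a constant floor gave 7.09 h in WT (6.53 to 7.59 h when each time point was left out) and 6.33 h in YBX1-/- (5.71 to 7.40 h). The fits with a floor used rates without logs, and the floor came out at 1.8e-21% in WT and 2.49e-17% in YBX1-/-. Loss of labelled molecules and dilution by new unlabelled ones cannot be told apart, so half-lives refer to the label.

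**Figure D1:**
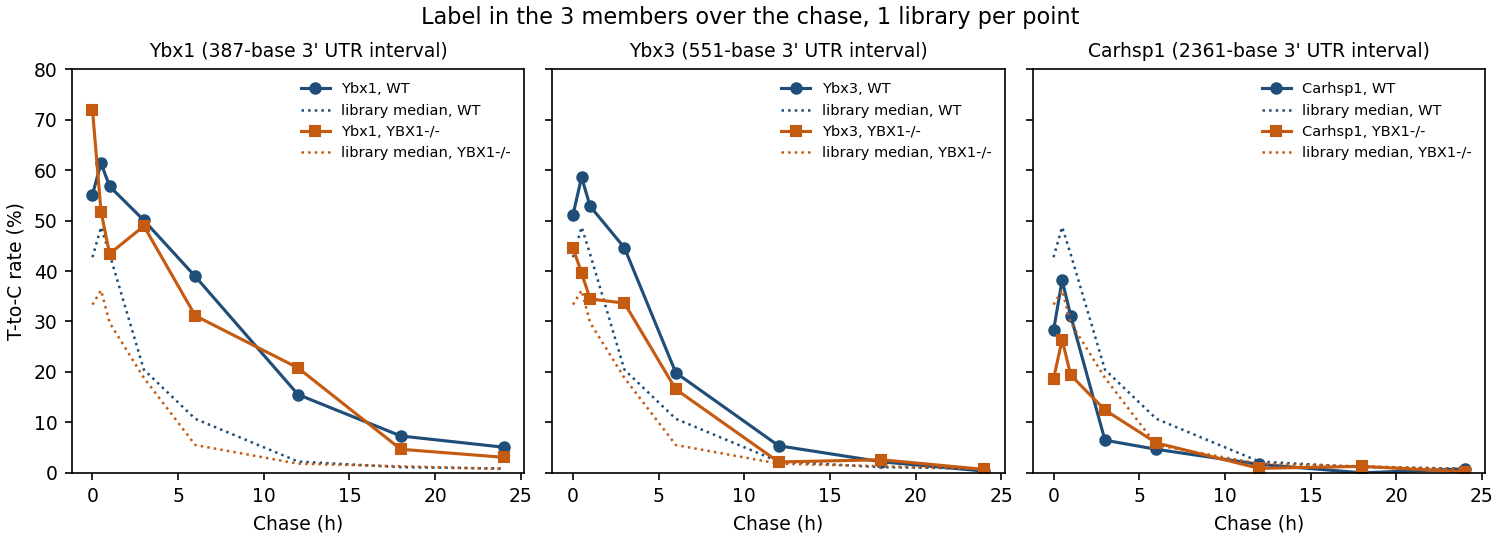
T-to-C rate (%) of the main 3' UTR interval of Ybx1, Ybx3 and Carhsp1 against hours of chase, 1 library per point and no error bars; dotted lines are the medians of all tested intervals in WT and YBX1-/-. Ybx1 lies above the median in all 16 libraries, with 15.51% in WT and 20.79% in YBX1-/- at 12 h, where the medians were 2.24% and 1.82%.

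Ybx3, a close relative of Ybx1, started at a similar rate in WT and read below Ybx1 in every library. Its main interval read 51.15, 58.61, 52.84, 44.62, 19.84, 5.37, 2.19 and 0.35% in WT from 0 to 24 h. In YBX1-/- it read 44.57, 39.59, 34.47, 33.64, 16.56, 2.15, 2.59 and 0.68%. It was above the library median up to 18 h in both genotypes and below it at 24 h. The half-life of label was 3.47 h in WT (slope -0.288 log2 per h, SE 0.0221, adjusted p = 4.09e-08) and 4.03 h in YBX1-/- (slope -0.248 log2 per h, SE 0.0221, adjusted p = 2.03e-07). These slopes sit near the middle of the table, with 41.4% of tested intervals falling faster in WT and 50.1% in YBX1-/-. With a constant floor allowed the half-life was 4.47 h in WT (3.89 to 4.83 h) and 4.35 h in YBX1-/- (3.77 to 4.91 h). The fitted floors were 3.12e-24% and 7.06e-16%.

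Carhsp1 was labelled less from the start. It read 28.23, 38.19, 31.14, 6.47, 4.66, 1.69, 0 and 0.79% in WT from 0 to 24 h. In YBX1-/- it read 18.60, 26.42, 19.38, 12.45, 5.93, 0.89, 1.28 and 0.20%. It was below the library median in all 8 WT libraries and in 7 of 8 YBX1-/- libraries, the other being 6 h, at 1.07 times the median. The steepest step in WT lay between 1 and 3 h, from 31.14 to 6.47%, whereas in YBX1-/- the same step went from 19.38 to 12.45%. A rate of 0, as at 18 h in WT, can stand for no converted reads or for no reads.

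The half-life of Carhsp1 label from the straight line was 3.47 h in WT (slope -0.289 log2 per h, SE 0.0557, adjusted p = 0.000172) and 3.89 h in YBX1-/- (slope -0.257 log2 per h, SE 0.0557, adjusted p = 0.000542). The fit that allows a floor, made on rates without logs, gave 2.04 h in WT (1.08 to 2.86 h) and 3.39 h in YBX1-/- (2.32 to 3.75 h). Its fitted floor was only 0.0568% in WT and 3.93e-18% in YBX1-/-. All 6 member intervals fell over the chase in both genotypes, as did 92.3% of tested intervals in WT and 91.3% in YBX1-/-.

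The members were next compared with each other inside each genotype, as the log2 difference of rate between their main intervals in the same library, with 6 comparisons of 3 pairs. Ybx1 was above Ybx3 in 8 of 8 libraries of each genotype, by a mean of 1.02 ± 1.21 (SD, n = 8 time points) in WT and 1.12 ± 1.00 in YBX1-/- on the log2 scale (two-sided exact permutation test of signs, p = 0.0078125, the smallest it can give, adjusted p = 0.00937). In WT the Ybx1 to Ybx3 difference widened by 0.130 log2 per h (exact permutation over 40320 orders of the hours, p = 9.92e-05, adjusted p = 0.000595). In YBX1-/- the slope of this difference was 0.066 log2 per h and did not pass (exact permutation p = 0.079, adjusted p = 0.158), while without the 12 h library it was 0.051 with p = 0.0123. Whether the widening differed between the genotypes was not tested.

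Ybx1 was also above Carhsp1 in 8 of 8 libraries of each genotype, by a mean of 2.54 ± 1.81 (SD, n = 8) in WT and 2.25 ± 1.14 in YBX1-/- (exact permutation p = 0.0078125 for each, adjusted p = 0.00937). The slope of that difference was 0.130 log2 per h in WT (exact permutation p = 0.0746) and 0.075 in YBX1-/- (p = 0.108). Without the 24 h library the WT slope was 0.266 with an exact permutation p of 0.000794, and without 18 h the YBX1-/- slope was 0.105 with p = 0.0401, so whether these slopes pass depends on single late libraries. Ybx3 was above Carhsp1 in 7 of 8 WT libraries, by a mean of 1.53 ± 1.65 (exact permutation p = 0.039062, adjusted p = 0.0391), and leaving out any time point but 24 h gave p = 0.0625 or 0.078125. In YBX1-/- it was above in 8 of 8 by 1.13 ± 0.31 (exact permutation p = 0.0078125, adjusted p = 0.00937), with no slope that passed in either genotype over all time points. Without 24 h the WT slope was 0.164 (exact permutation p = 0.0319). The order of label was therefore Ybx1, Ybx3, Carhsp1 in 15 of the 16 libraries, the exception being WT 24 h, where Carhsp1 (0.79%) read above Ybx3 (0.35%).

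**Figure D2:**
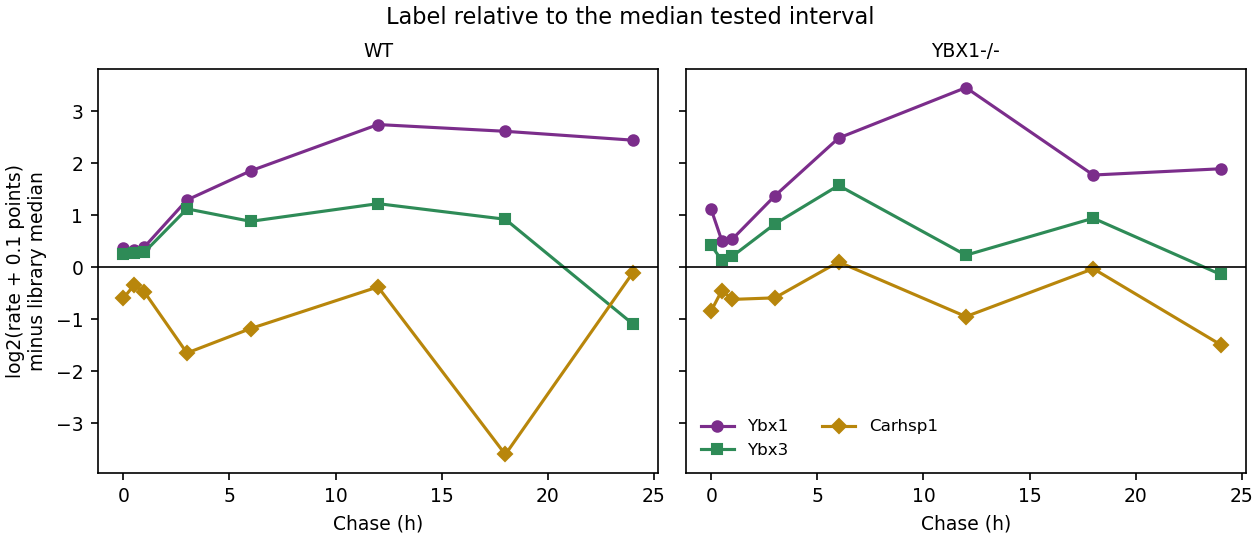
log2(rate + 0.1 percentage points) minus the library median for the main intervals of Ybx1, Ybx3 and Carhsp1 against hours of chase, WT and YBX1-/- in separate panels, 1 library per point. Ybx1 is above the median line throughout and farther from it at 12 h than at 0 h, after a drop at 0.5 h in YBX1-/-, Ybx3 stays between the median and Ybx1 until 18 h, and Carhsp1 is below the median in all WT libraries.

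The study compared WT with YBX1-/- to ask how loss of YBX1 affects mRNA stability, and no member differed between the genotypes beyond the scatter of the time points. The decay rate difference is the YBX1-/- minus WT slope after the library median was subtracted. A negative value means faster loss of label in YBX1-/- relative to the median tested interval. For the main Ybx1 interval it was -0.043 log2 per h (SE 0.0211, 95% confidence interval -0.091 to 0.005, adjusted p = 0.449, exact permutation p = 0.09375). For Ybx3 the same difference was 0.021 (interval -0.039 to 0.080, adjusted p = 0.799), and Carhsp1 had 0.012 (interval -0.145 to 0.169, adjusted p = 0.96). None of the 6 member intervals passed, and 3 of 15871 tested intervals did (0.0189%), 1 in Zfp330 and 2 in Nptn, while 1997 had an unadjusted p under 0.05. The intervals span differences in either direction, so they do not show that the genotypes lost label alike. Without subtraction of the library median the decay rate difference was -0.024 log2 per h for Ybx1, 0.040 for Ybx3 and 0.031 for Carhsp1. None of these passed.

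The level difference is the mean of YBX1-/- minus WT over the 8 time points, again after the library median was subtracted. It was 0.14 log2 for Ybx1 (SE 0.21, 95% confidence interval -0.33 to 0.61, adjusted p = 0.89, higher in YBX1-/- at 6 of 8 time points). It was 0.04 for Ybx3 (SE 0.221, interval -0.46 to 0.54, adjusted p = 0.978, higher at 4 of 8) and 0.43 for Carhsp1 (SE 0.557, interval -0.82 to 1.69, adjusted p = 0.871, higher at 3 of 8). In limma no tested interval passed for the level, 0.0% of 15871, and 845 had an unadjusted p under 0.05. Without subtraction of the library median the signs for Ybx1 and Ybx3 turned, to -0.19 and -0.29 log2, since YBX1-/- libraries had lower medians at 7 of 8 time points. For Carhsp1 it was 0.11 without subtraction. The Carhsp1 level, positive in the mean but at only 3 of 8 time points, was -0.02 without the 18 h time point, where WT read 0.

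**Figure D3:**
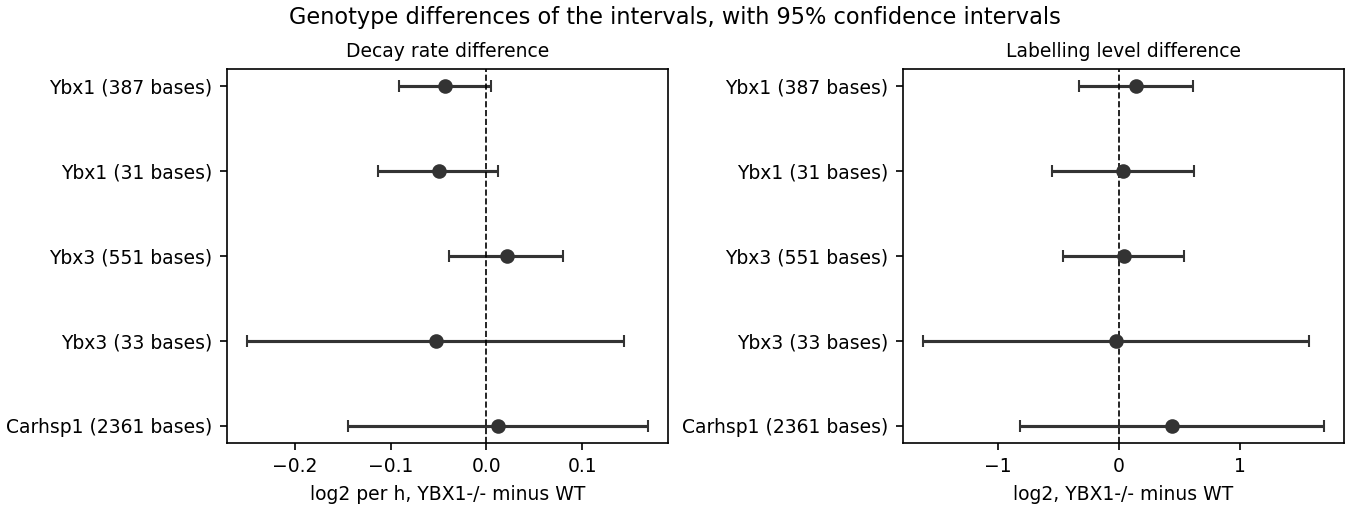
YBX1-/- minus WT differences of the 5 member intervals with values of their own, with 95% confidence intervals from limma: decay rate difference in log2 per h on the left and level difference in log2 on the right. All intervals include 0, and the widest belong to the 33-base Ybx3 piece and to Carhsp1.

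The 2 pieces of the split 3' UTRs were compared within each library. The short Ybx1 piece read 33.33, 35.59, 38.52, 25.09, 28.04, 4.79, 3.52 and 3.80% in WT and 46.67, 40.0, 16.36, 24.19, 18.18, 6.67, 3.33 and 1.28% in YBX1-/-. It was below the long piece in all 16 libraries, by 0.83 ± 0.41 log2 (SD, n = 8) in WT and 0.94 ± 0.45 in YBX1-/- (two-sided exact permutation p = 0.0078125 each). Straight lines gave the short piece a half-life of label of 6.21 h in WT and 5.21 h in YBX1-/-, and the long piece 6.32 and 5.50 h. With a constant floor, the half-lives of the short piece were 6.57 h in WT (4.89 to 7.88 h when each time point was left out) and 3.30 h in YBX1-/- (0.713 to 5.74 h), against 7.09 and 6.33 h for the long piece. The fitted floor of the short piece was 4e-15% in WT and 2.95% in YBX1-/-. The slopes of the pieces were not tested against each other.

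The short Ybx3 piece has only 3 T and a rate of 0 in 4 of 16 libraries. It was below the long piece in 7 of 8 WT libraries, by 2.02 ± 2.31 log2 (exact permutation p = 0.046875), and in 8 of 8 YBX1-/- libraries, by 2.09 ± 1.13 (p = 0.0078125). Its WT rates ran from 23.38% at 0 h to 1.47% at 24 h, with 0 at 12 and 18 h. Short pieces were often lower elsewhere too. Of 121 tested genes with a piece of at most 50 bases and a separate one of at least 300, the short one was lower in 83 in WT (median -0.516 log2) and in 86 in YBX1-/- (median -0.45). The number of T in an interval moved with the rate: the median WT rate at 0 h was 39.39% in intervals with 0 to 9 T and 44.59% in those with at least 500. The part of T number and of coverage in the difference between the pieces was not tested.

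**Figure D4:**
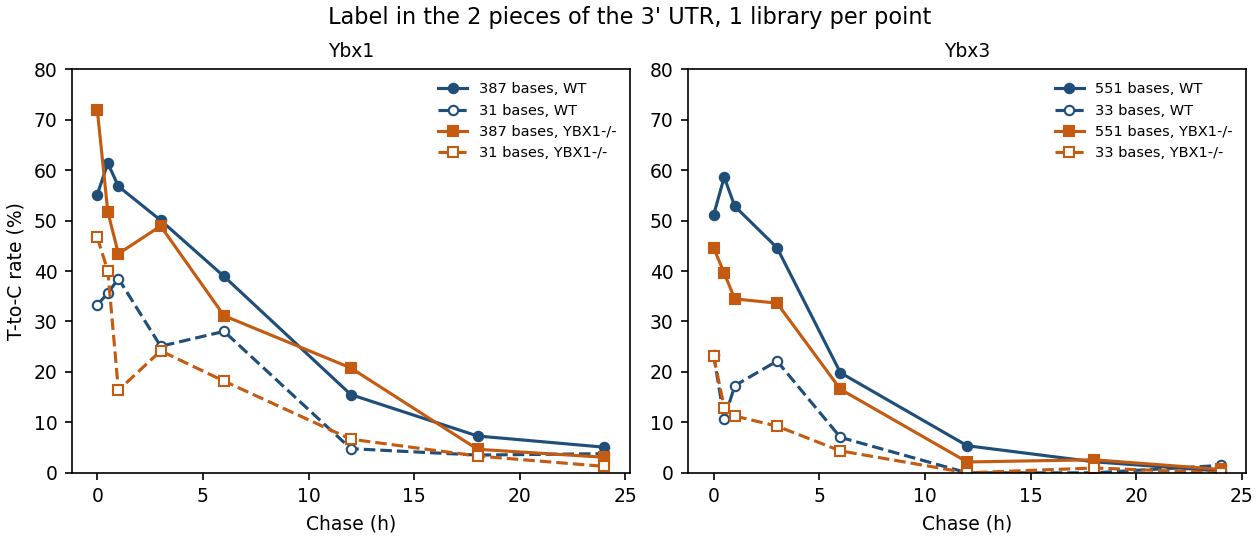
T-to-C rate (%) of the short and the long 3' UTR piece of Ybx1 (31 and 387 bases) and Ybx3 (33 and 551 bases) against hours of chase, in WT and YBX1-/-, 1 library per point. The short Ybx1 piece lies below the long one in all 16 libraries, and the short Ybx3 piece in 15 of 16.

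The cold-inducible RNA-binding proteins have no cold-shock domain despite their names. The difference in decay rate was 0.180 log2 per h for Rbm3 (SE 0.0707, adjusted p = 0.335) and 0.038 for Cirbp (SE 0.121, adjusted p = 0.931), and neither passed. The exact permutation p for this difference was 0.648 for Rbm3 and 0.703 for Cirbp. Both were thinly covered, at 1.5 and 3.9 CPM. At 24 h Rbm3 read 0% in WT and 10.0% in YBX1-/-, and Cirbp 0% and 0.89%.

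A list of 23 genes for proteins that share messenger ribonucleoprotein particles with YBX1 had 21 tested genes. All 21, each with 1 interval, fell over the chase in both genotypes. This is near the shares over all tested intervals (92.3% in WT and 91.3% in YBX1-/-). With 1 interval per gene, 7000 of 7361 intervals fell in WT and 6854 in YBX1-/-. None of the 21 passed for the decay rate difference or the level. The decay rate differences were above 0 in 17 and below 0 in 4, with a median of 0.025 log2 per h against 0.005 over all tested genes. The quartiles over all tested intervals were -0.042 and 0.060 log2 per h, which describe single intervals and not medians of lists. The share of all tested genes above 0 is not given here, and a lean of the list to either side was not tested. Those with the smallest unadjusted p were Larp1, which binds mRNAs of the translation machinery (0.122 log2 per h, SE 0.0348, adjusted p = 0.202), Pura, a single-strand binding protein (0.080, SE 0.0251, adjusted p = 0.231), and Strap, a particle component (0.077, SE 0.0369, adjusted p = 0.444). For the level the median was -0.001 log2 against -0.009 over all genes. The smallest p belonged to Upf1, the helicase of nonsense-mediated decay (1.48 log2, SE 0.753), Pura (0.47, SE 0.308) and Strap (0.55, SE 0.367), each with adjusted p = 0.769. At 24 h, WT read 0% for Larp1, Strap and Upf1, where YBX1-/- read 0.84, 0.67 and 1.53%. Pura read 0.5% in WT and 1.5% in YBX1-/- at 24 h. A rate of 0 takes its log2 value from the added 0.1 percentage points. The part of the WT 24 h library in these differences was not tested.

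The pattern of each member over the 16 libraries, relative to the library median, was also set against 7360 other genes as a description. Ybx1 was most like Uqcrq (Pearson r = 0.965) and Ndufa3 (r = 0.962), both parts of the respiratory chain, and S100a6 (r = 0.963), a calcium-binding protein. Ybx3 was most like Anxa3 (r = 0.907), an annexin, Nelfe (r = 0.877), part of a factor that pauses transcription, and Fam162a (r = 0.875). Carhsp1 was most like Hdlbp (r = 0.891), an RNA-binding protein, and Rpp21 (r = 0.876), a subunit of ribonuclease P. The members were not among the most alike in this sense, with r = 0.177 for Ybx1 and Ybx3, -0.228 for Ybx1 and Carhsp1 and -0.14 for Ybx3 and Carhsp1. Among the 7360 genes, Ybx3 ranked 1777 and Carhsp1 4175 for Ybx1, and Carhsp1 ranked 4660 for Ybx3. The Carhsp1 values include its rate of 0 at 18 h in WT. On values without subtraction of the library median, r was 0.945, 0.88 and 0.896 for the same pairs. All these values share the same libraries and time course.

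Across the series, the median rate of tested intervals fell from 42.74 to 0.86% in WT and from 33.33 to 0.76% in YBX1-/-, and up to 33.8% of tested intervals read 0 in a library. The YBX1-/- 0 h library had 3.86% of tested intervals at 0, against 0.06% in WT at 0 h, and it also gave the highest Ybx1 rate, 72.0%. Without it the decay rate difference was -0.035 log2 per h for Ybx1, 0.029 for Ybx3 and 0.004 for Carhsp1, and the level difference 0.07, 0.04 and 0.54 log2, none past the threshold. Depth per library is unknown, so rates carry no counting interval. Of the myeloid markers, 17 of 17 had 1 CPM or more (summed mean 10322.38 CPM, led by Lyz2), while erythroid markers reached 2 of 7 (highest 1.34 CPM), T cell markers 0 of 5, B cell markers 1 of 4 (Cd79b, 7.39 CPM), megakaryocyte markers 3 of 4 (Pf4, 39.84 CPM) and stromal markers 1 of 5 (Pecam1, 4.60 CPM). These are means over all libraries, so whether any cell type differed between genotypes was not tested.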

How the data were processed

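SLAM-seq of 16 libraries (2 genotypes, 8 chase times) was analysed. The authors deposited a T-to-C rate per library and interval as a fraction from 0 to 1, with the mean CPM and a mean coverage signal on T per interval, per the file headers. The submitters' processing notes name CASAVA, HISAT2 2.1.0 and the human build GRCh38, but the number of T in 74183 intervals was the same as in the mouse GRCm38 transcripts, so that build is used. How conversions were counted, and what the rate is divided by, the labels and headers do not say, and no unlabelled library was analysed.

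Rates in percent were analysed as log2(rate + 0.1 percentage points), which shrinks differences of low rates. Intervals of at least 1 CPM with a rate above 0 in at least 12 libraries were tested (15871). limma 3.58.1 with trend (R 4.3.3) fitted a line per genotype, and, with the time point as a factor and the library median subtracted, genotype by hours (6 residual degrees of freedom) or genotype (7), with Benjamini-Hochberg adjustment over all tested intervals and a threshold of 0.05. Single values were tested by exact permutation, exchanging genotypes within time points (256 exchanges), signs, or hours. Half-lives with a constant floor were fitted to the rates by least squares (scipy 1.17.1). The fits were also run on simulated data, with no outcome given here. How they behave with many rates of 0, or with differences as small as those of the members, was not tested. Named genes were the members, the tested genes of the cold-inducible list, the partners with the 3 smallest p and the 3 genes of highest r, predicted genes left out; some results under this rule are not reported here. Members and lists were chosen with earlier results of these data known, and the member and piece comparisons after values were seen.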

Additional observations from a re-analysis of the deposited data

How the results depend on the processing

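No member interval passed for the decay rate difference or the level under any setting in which it was tested. With 1 interval per gene the short pieces were not tested, and the 33-base Ybx3 piece was also not tested without 0, 0.5, 1, 3 or 6 h or without the YBX1-/- 0 h library. The number of intervals called for the decay rate difference, 3, was 1 with 0.01 added, 0 with 0.5 added, 15 with at least 5 CPM, 1 without a minimum CPM, 1 with 8 libraries above 0, 10 without that filter, 9 with 1 interval per gene, 0 without centring, 9 from 0 to 12 h, 0 from 0 to 6 h and 0 without the YBX1-/- 0 h library. Leaving out each time point gave 0 to 369 (369 without 12 h). For the level it was 2 with at least 5 CPM. With 1 interval per gene, and so fewer tested, 7000 fell in WT and 6854 in YBX1-/-. The cause of other changes was not tested.

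Signs of values that did not pass were not stable. Changing the filter on zeros left the slopes of the members themselves as in the main fits (Ybx3 -0.288 in WT and -0.248 in YBX1-/-, Carhsp1 -0.289 and -0.257). It changed the tested intervals and so the subtracted library medians. The median decay rate difference was 0.004 log2 per h in the main fits, -0.020 with 8 libraries above 0 and -0.080 without the filter. The decay rate difference turned for Carhsp1 (-0.002 with 0.5 added, -0.014 with 8 libraries above 0, -0.072 without the filter, -0.002 from 0 to 12 h, -0.065 to 0.144 with a time point left out), Ybx1 (0.039 from 0 to 12 h and 0.040 from 0 to 6 h, short piece 0.042 from 0 to 12 h), and Ybx3 (-0.005, -0.064 and -0.053 with 8 libraries, without the filter and from 0 to 12 h, -0.017 to 0.029 with a time point left out, short piece 0.011 from 0 to 12 h and -0.149 to 0.139). The level turned for Ybx1 (-0.238 without the filter, -0.190 without centring), its short piece (-0.080 with 8 libraries, -0.343, -0.295, -0.069 without the YBX1-/- 0 h library, -0.077 to 0.234), Ybx3 (-0.073, -0.335, -0.287, -0.097 from 0 to 12 h, -0.084 to 0.182), its short piece (0.006 with 5 CPM, 0.077 and 0.026 over the shorter chases, -0.496 to 0.518) and Carhsp1 (-0.021 to 0.699).

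From 0 to 6 h some slopes did not pass: -0.098 for Ybx1 in WT, -0.071 and -0.170 for its short piece in WT and YBX1-/-, -0.185 and -0.331 for that of Ybx3, and -0.321 for Carhsp1 in YBX1-/-. Slopes between members, with a time point left out, ran from 0.051 to 0.090 for Ybx1 and Ybx3 in YBX1-/-, 0.072 to 0.266 and 0.060 to 0.105 for Ybx1 and Carhsp1 in WT and YBX1-/-, and -0.074 to 0.164 for Ybx3 and Carhsp1 in WT. With 0.5 added the last was -0.025, and -0.012 in YBX1-/-. These alternatives for member pairs and pieces were chosen after seeing the data. By Spearman's rho, S100a6 ranked 1 for Ybx1, Anxa3 17 for Ybx3 and Hdlbp 10 for Carhsp1. Both genotype comparisons paired WT with YBX1-/- by time point. The depth of each library is unknown, which limits all late rates.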
